A study of Sus scrofa with 12 samples.

Results

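ME1, PGD, TKT, TALDO1, IDH1, SLC25A1 and ACSS2 encode 6 enzymes and a carrier that provide NADPH and acetyl-CoA for fatty acid synthesis. Their symbols were matched to pig Ensembl gene IDs, which gave 1 row for each of the 7 genes among the 24358 genes of the table, and all 7 had enough reads to be tested. The IDs were ENSSSCG00000004454 for ME1, ENSSSCG00000003402 for PGD, ENSSSCG00000021408 for TKT, ENSSSCG00000012847 for TALDO1, ENSSSCG00000023264 for IDH1, ENSSSCG00000010116 for SLC25A1 and ENSSSCG00000007286 for ACSS2. RNA was taken from subcutaneous mid-back fat, as whole tissue although the cell type is labelled adipocyte, in 4 groups of 3 libraries each. GS_80d and GS_9d were Guangdong small-eared pigs at 80 d and at 9 d of age, and YK_80d and YK_9d were Yorkshire pigs at the same ages. Every animal is labelled wild type, no treatment is given, and the series compares the breeds at both ages. Whether the 3 libraries of a group came from separate animals, and whether any animals were pooled, is not stated, so the p-values measure only the spread between libraries, which may be technical.

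Fatty acid synthesis in the cytosol uses acetyl-CoA as its carbon source and NADPH as its reducing agent, and in the pig adipose tissue is the main site of this synthesis. NADPH comes from the pentose phosphate pathway, from malic enzyme and from cytosolic isocitrate dehydrogenase. Acetyl-CoA is made in mitochondria, leaves them as citrate and is released again by ATP citrate lyase (ACLY), or it is made in the cytosol from acetate. ME1 is the cytosolic malic enzyme, which turns malate into pyruvate and makes NADPH. PGD, 6-phosphogluconate dehydrogenase, makes NADPH in the pentose phosphate pathway, after PGLS, a lactonase. TKT, transketolase, and TALDO1, transaldolase, return the pentose sugars to glycolysis. IDH1 is the cytosolic and peroxisomal isocitrate dehydrogenase, SLC25A1 carries citrate out of mitochondria, and ACSS2 makes acetyl-CoA from acetate.

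The deposited totals ran from 45435480 to 60993349 units per library. Low values piled up at multiples of about 3.72 units, so a unit may not be 1 sequenced fragment. Levels below are CPM, the counts scaled to a common library total with TMM factors, and they are not divided by gene length, so they compare libraries and not genes. Of 15 adipocyte markers, ADIPOQ and PLIN1 among them, 13 had a row, none of the 13 was at 0 in any library, and their summed level was 25180 to 28990 CPM in GS_80d, 14830 to 20700 in YK_80d, 18080 to 36690 in GS_9d and 14060 to 33530 in YK_9d. Transcripts of other tissues were uneven. The sum of 6 skeletal muscle genes reached 13130 CPM in 1 YK_80d library (replicate 3), 11140 CPM in 1 GS_9d library (replicate 3) and 2252 CPM in 1 YK_9d library (replicate 1), and was no higher than 88.8 CPM in the other 9. The T and NK cell sum was highest in YK_80d replicates 2 and 3, at 540 and 850 CPM. The sum of 6 keratinocyte and hair follicle genes was highest in YK_9d replicates 2 and 3, at 24.6 and 63.8 CPM, against at most 7.69 elsewhere.

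At 80 d most of the 7 genes were higher in GS than in YK. Of the 7 genes 6 passed the threshold, an adjusted p of 0.05 in edgeR's quasi-likelihood test over all 15425 genes tested, and all 6 were higher in GS_80d, whereas 3.17% of all genes tested were called higher and 2.95% lower. ME1 differed most, by 6.17-fold, and ACSS2 by 4.03-fold. TALDO1 did not pass in edgeR, and it passed by DESeq2 (0.79, adjusted p = 0.0296), which called all 7 genes. The median log2 difference of the 7 genes was 1.40, against -0.02 for all genes tested.

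Among the makers of NADPH, ME1 had 564, 280 and 382 CPM in the GS_80d libraries, against 62.7, 74.7 and 61.3 CPM in YK_80d. The lowest GS_80d library lay far above the highest YK_80d library, and the log2 difference was 2.63 ± 0.42 (SE, adjusted p = 0.00603). PGD had 292, 197 and 212 CPM in GS_80d and 110, 95.1 and 88.0 CPM in YK_80d. The groups did not overlap, and the log2 difference was 1.26 ± 0.28 (adjusted p = 0.0258). IDH1 had 569, 556 and 704 CPM in GS_80d, against 205, 214 and 240 CPM in YK_80d. Both groups were tight, and the difference was 1.48 ± 0.30 on the log2 scale (adjusted p = 0.0155).

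The enzymes that return pentoses to glycolysis had the smallest estimates of the 7 genes. TKT had 1063, 763 and 830 CPM in GS_80d and 509, 357 and 420 CPM in YK_80d. All 3 GS_80d libraries lay above the YK_80d libraries, with a log2 difference of 1.05 ± 0.28 (adjusted p = 0.0458), just inside the threshold. TALDO1 had 613, 497 and 638 CPM in GS_80d, against 367, 274 and 362 CPM in YK_80d. Here too the libraries of the breeds did not overlap, but the log2 difference of 0.80 ± 0.27 did not pass (adjusted p = 0.0924). Its interval of 95% ran from 0.22 to 1.38.

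SLC25A1 and ACSS2, on the routes to cytosolic acetyl-CoA through citrate and acetate, had higher transcript levels in GS_80d. SLC25A1, the citrate carrier, had 176, 122 and 182 CPM in GS_80d and 67.4, 59.2 and 55.6 CPM in YK_80d. Its log2 difference was 1.40 ± 0.24 (adjusted p = 0.00795), with no overlap between the groups. ACSS2, the acetate enzyme, had 217, 204 and 181 CPM in GS_80d, against 55.9, 52.5 and 40.9 CPM in YK_80d. It had the smallest standard error of the 7 genes, with a log2 difference of 2.01 ± 0.20 (adjusted p = 0.000615). The groups did not overlap for any of the 7 genes, a pattern that 17.1% of all genes tested showed in the same direction.

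**Figure D1:**
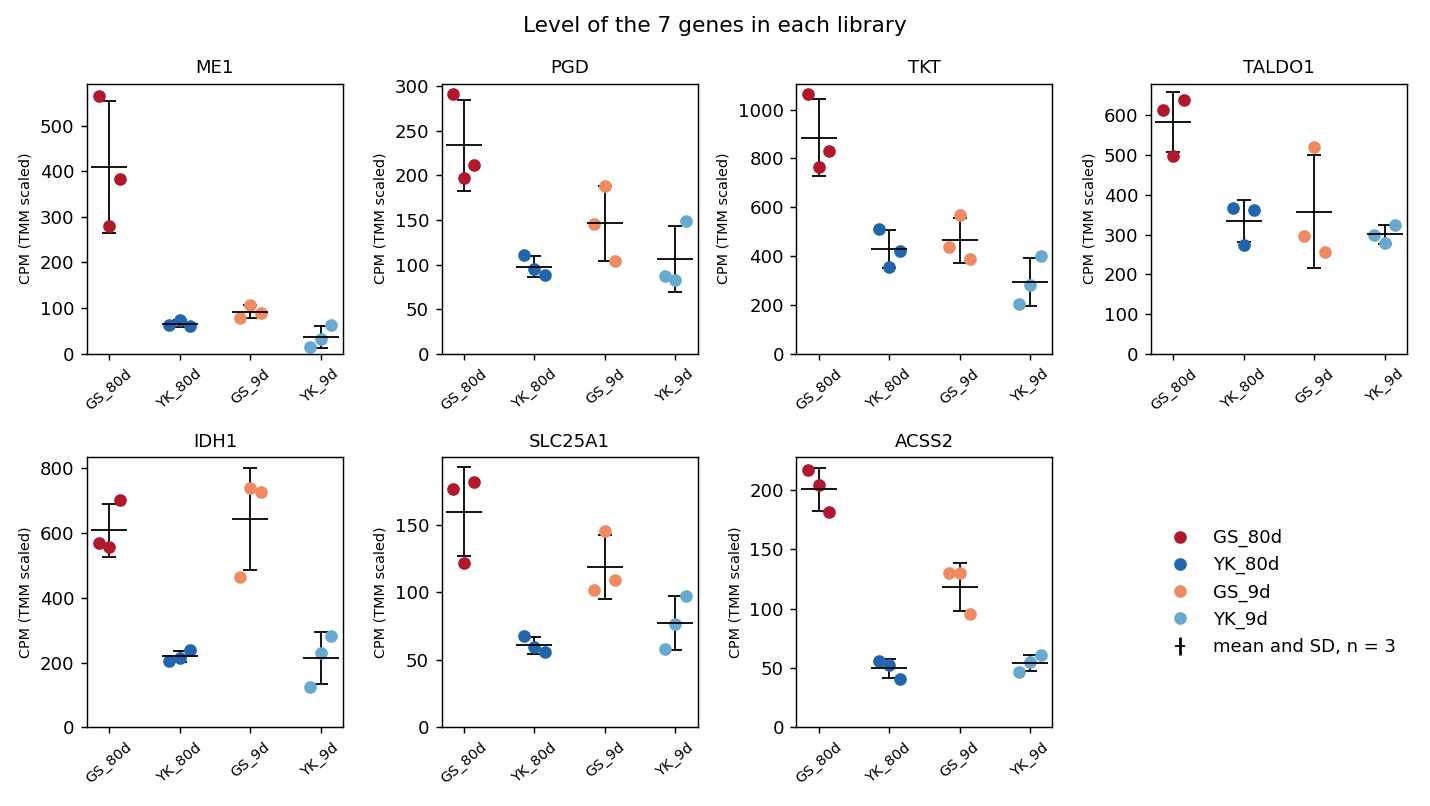
Level of each gene in every library, in CPM with TMM scaling on axes that start at 0, with points for libraries, a bar for the group mean and whiskers for the SD (n = 3 each). All GS_80d points stand above all YK_80d points for each gene, and the IDH1 points of GS_80d and GS_9d overlap.

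ACSS2, ME1 and SLC25A1 kept their calls at 80 d whichever of the 6 libraries was left out. IDH1 lost its call without GS_80d replicate 3 (log2 difference 1.37, adjusted p = 0.0551), PGD in 4 of the 6 fits (adjusted p up to 0.108) and TKT in all 6 (adjusted p up to 0.164), so that 3 genes passed without GS_80d replicate 3 and 4 or 5 in the other fits. PGD and TKT also lost their calls without the 3 libraries with muscle transcripts (adjusted p = 0.0890 and 0.122). Without YK_80d replicates 2 and 3, where T cell transcripts were highest, ACSS2 alone passed, with 1 YK_80d library left that is assumed to vary like the other groups. In that fit ME1 differed by 2.71 and SLC25A1 by 1.25 on the log2 scale (adjusted p = 0.103 and 0.127), and the 7 differences ran from 0.67 to 2.71.

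Transcripts of cell types moved with this comparison. Of the 13 adipocyte markers tested 10 had positive and 3 had negative differences at 80 d, with a median of 0.79, and 4 were called higher in GS_80d. Of all genes tested 48.6% had positive differences, 3.17% were called higher and 2.95% lower. The T and NK cell sum was 145 to 171 CPM in GS_80d and 252 to 850 CPM in YK_80d, with 10 of 10 tested genes negative and 4 called lower. The groups did not overlap for 2 of these 10 genes. In YK_80d replicate 1, CD247 at 159 CPM, GNLY at 47.5 CPM and CCL5 at 18.9 CPM lay above every GS_80d library. CD3D, CD2 and CD5 of that library, at 0.937, 4.60 and 0.916 CPM, lay below every GS_80d library. Among 10 simple epithelium genes, CLDN4 had 0.907, 2.20 and 1.34 CPM in GS_80d and 527, 43.0 and 257 CPM in YK_80d, while KRT8, KRT18 and EPCAM overlapped between the groups. Among 9 sebaceous gland genes with a row, AWAT2 was at 0 in all 12 libraries and ELOVL3 and KRT79 in 11 of 12. SOAT1, FAR2 and PLIN2 of that list were above 0 in every library, and MC5R was 2.40 to 4.63 CPM in GS_80d and 0.149 to 0.683 CPM in YK_80d. The part of the other cell types in the difference was not tested, and in bulk tissue fewer cells of a type cannot be told apart from less RNA per cell. The summed counts of the 7 genes were also divided by the summed adipocyte markers of the same library. This ratio was 0.139, 0.0980 and 0.108 in GS_80d, against 0.0832, 0.0759 and 0.0612 in YK_80d, without overlap. At 9 d the same ratio was 0.0914, 0.0654 and 0.0702 in GS_9d and 0.0594, 0.0484 and 0.0411 in YK_9d. The divisor is weighted to abundant markers, which differed in pattern at 80 d. FABP4 overlapped between the breeds, at 5814, 5734 and 6533 CPM in GS_80d and 3940, 6442 and 8271 CPM in YK_80d. PLIN1 did not, at 2079, 2069 and 2069 CPM in GS_80d and 909, 614 and 984 CPM in YK_80d. The separation by this ratio therefore depends on the markers summed, and the part of adipocyte content was not tested.

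At 9 d IDH1 and ACSS2 were higher in GS, and the other 5 genes did not pass in edgeR, while DESeq2 called 3 of the 7, with ME1 added (1.30, adjusted p = 0.0311). The count of 2 of 7 stands beside 0.655% of all genes called higher in GS_9d and 0.363% called lower. IDH1 had 463, 741 and 728 CPM in GS_9d, against 126, 231 and 284 CPM in YK_9d. The groups did not overlap, and the log2 difference was 1.59 ± 0.30 (adjusted p = 0.0347). ACSS2 had 130, 130 and 95.3 CPM in GS_9d and 47.1, 54.9 and 61.1 CPM in YK_9d. It also showed no overlap, with a log2 difference of 1.12 ± 0.20 (adjusted p = 0.0317).

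ME1 had 79.1, 107 and 89.4 CPM in GS_9d, against 15.8, 32.4 and 63.2 CPM in YK_9d. The groups did not overlap, but the YK_9d libraries were widely spread, and the log2 difference of 1.31 ± 0.41 did not pass (adjusted p = 0.153). Without YK_9d replicate 3, the highest of them, it was 1.91 and passed (adjusted p = 0.0292). SLC25A1 had 102, 146 and 109 CPM in GS_9d and 58.2, 76.5 and 97.5 CPM in YK_9d, a log2 difference of 0.62 ± 0.24 (adjusted p = 0.251) without overlap. The pentose phosphate genes overlapped between the breeds at this age. Their log2 differences were 0.66 ± 0.28 for TKT, 0.46 ± 0.28 for PGD and 0.25 ± 0.27 for TALDO1, with 95% intervals of 0.05 to 1.26, -0.15 to 1.07 and -0.32 to 0.83 (adjusted p = 0.299, 0.509 and 0.753). In all, 4 of the 7 genes had groups that did not overlap, each higher in GS_9d, as did 8.93% of all genes tested. The median difference of the 7 was 0.66, and that of the 13 adipocyte markers at 9 d was 0.66 too. Markers of other cells also differed: the sum of 5 erythroid genes was 365 to 420 CPM in GS_9d and 755 to 1726 CPM in YK_9d, and the T and NK cell sum was 104 to 226 CPM in GS_9d and 71.5 to 77.4 CPM in YK_9d. Their part in the breed difference at 9 d was not tested.

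The calls at 9 d depended on single libraries. IDH1 lost its call without GS_9d replicate 2 or 3 or YK_9d replicate 1 or 2 (adjusted p up to 0.118), and ACSS2 without GS_9d replicate 1 or 2 or YK_9d replicate 1 or 2 (adjusted p up to 0.114). Over all 6 fits that left out 1 library, with or without the call, the log2 differences stayed between 1.32 and 1.83 for IDH1 and between 1.03 and 1.25 for ACSS2. Neither gene passed without the 3 libraries with muscle transcripts (1.23 for IDH1, 1.17 for ACSS2) or without YK_9d replicates 2 and 3 (2.35 and 1.33), a fit with 1 YK_9d library that is assumed to vary like the other groups.

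**Figure D2:**
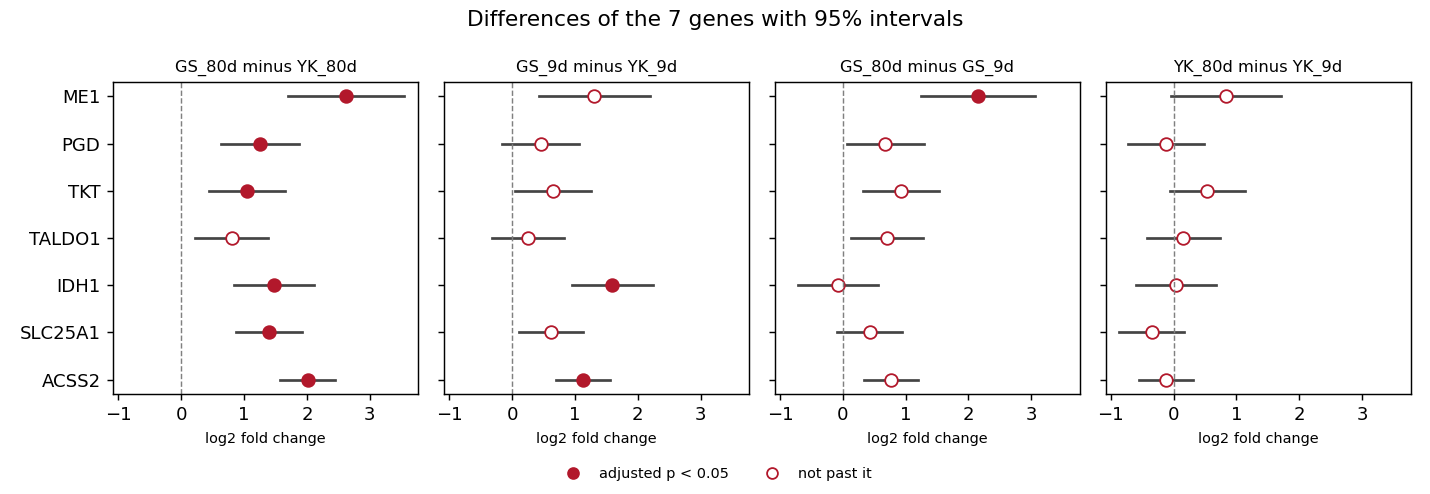
Log2 fold change of each gene in 4 comparisons, with lines for 95% intervals and filled points for an adjusted p under 0.05. ME1 is the filled point for age in GS, IDH1 stays near 0 for age in both breeds, and no point is filled for age in YK.

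Between the ages, ME1 rose in GS and none of the 7 genes passed in YK. In GS, 1 of the 7 genes was called higher at 80 d, as were 1.38% of all genes, and 1.27% were called lower. ME1 had 564, 280 and 382 CPM in GS_80d, against 79.1, 107 and 89.4 CPM in GS_9d, a log2 difference of 2.15 ± 0.42 (adjusted p = 0.0212) or 4.45-fold. The call was lost in 5 of the 6 fits that left out 1 library, all but the one without GS_80d replicate 2, with log2 differences of 1.87 to 2.39 over the 6 fits (adjusted p up to 0.0787). ACSS2 differed by 0.76 ± 0.20 (adjusted p = 0.0629), TKT by 0.93 ± 0.28 (0.0930), TALDO1 by 0.70 ± 0.27 (0.171) and PGD by 0.68 ± 0.28 (0.207) on the log2 scale. The GS_80d and GS_9d libraries did not overlap for ME1, PGD, TKT and ACSS2, and 17.2% of all genes tested showed such a separation with GS_80d higher. ACSS2 and TKT passed when only the 6 GS libraries were fitted (adjusted p = 0.046 and 0.0454). The macrophage marker sum was 195 to 408 CPM in GS_80d and 803 to 870 CPM in GS_9d, with 11 of 11 genes negative and 4 called lower, and its part in the age difference was not tested.

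The level of IDH1 overlapped between the ages in GS. It had 569, 556 and 704 CPM in GS_80d and 463, 741 and 728 CPM in GS_9d, with a log2 difference of -0.08 and a 95% interval of -0.71 to 0.55. The ratio of ME1 counts to IDH1 counts, which does not depend on the scaling of a library, was 0.991, 0.504 and 0.543 in GS_80d, against 0.171, 0.145 and 0.123 in GS_9d, and the ages did not overlap. In YK the same ratio was 0.306, 0.350 and 0.256 at 80 d and 0.126, 0.140 and 0.223 at 9 d, again without overlap. These ratios were not tested.

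In YK, 0 of the 7 genes passed for age in edgeR, where 0.810% of all genes were called higher and 0.395% lower, and 0 had an unadjusted p under 0.05, which 13.5% of all genes had. DESeq2 and limma-voom also called 0. ME1 had 62.7, 74.7 and 61.3 CPM in YK_80d and 15.8, 32.4 and 63.2 CPM in YK_9d, a log2 difference of 0.83 with a 95% interval of -0.04 to 1.71. The ages overlapped for each of the 7 genes, whereas they did not for 15.8% of all genes tested. TKT differed by 0.54 ± 0.28, TALDO1 by 0.15 ± 0.27, IDH1 by 0.04 ± 0.29, PGD by -0.12 ± 0.28, ACSS2 by -0.13 ± 0.20 and SLC25A1 by -0.35 ± 0.24, with adjusted p of 0.435 to 0.987 for these 6 genes. The median over the 7 genes was 0.04, against 0.00 for all genes. The T and NK cell sum was 252 to 850 CPM in YK_80d and 71.5 to 77.4 CPM in YK_9d, and the erythroid sum was 78.5 to 317 CPM in YK_80d and 755 to 1726 CPM in YK_9d. As in GS, the macrophage sum was lower at 80 d, at 226 to 573 CPM in YK_80d and 706 to 959 CPM in YK_9d. Its genes were negative in 9 of 11, with 2 called lower. Of 13 adipocyte markers 9 had negative and 4 positive differences, with a median of -0.39 and 0 called. The part of these cell types was not tested. SLC25A1 averaged 60.8 ± 6.01 CPM in YK_80d and 77.4 ± 19.7 CPM in YK_9d (SD, n = 3 each), and 160 ± 33.2 CPM in GS_80d and 119 ± 23.4 CPM in GS_9d.

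The breed by age interaction, the breed difference at 80 d minus that at 9 d, asks whether the breed difference itself changed. Of the 7 genes 0 passed it in edgeR, where 0.0648% of all genes did, and DESeq2 and limma-voom called 0 as well. An unadjusted p under 0.05, found for 11% of all genes, was found for 3 of the 7, ACSS2 (0.89 ± 0.28, adjusted p = 0.293), ME1 (1.32 ± 0.57, 0.423) and SLC25A1 (0.78 ± 0.34, 0.423). For IDH1 the interaction was -0.12 with a 95% interval of -1.01 to 0.78, and for TKT 0.39 with -0.45 to 1.24. The comparisons share libraries, GS_80d in the breed difference at 80 d and the age difference in GS for example, so they are not independent of each other. Over the 4 groups IDH1 was higher in both GS groups than in both YK groups, at 610 ± 81.7 CPM in GS_80d, 219 ± 18.0 in YK_80d, 644 ± 157 in GS_9d and 214 ± 80.4 in YK_9d (SD, n = 3 each). ACSS2 was ordered GS_80d, GS_9d, YK_9d and YK_80d, at 201 ± 17.9, 119 ± 20.1, 54.3 ± 7.02 and 49.8 ± 7.85 CPM, where only the last 2 groups overlapped.

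Libraries of a group tended to be high or low for several of the 7 genes at once. In GS_80d replicate 2 had the lowest level of 6 of the 7 genes, all but ACSS2, and it was also lowest for ACLY, FASN and SCD. In GS_9d replicate 2 had the highest level of 6 genes, with ACSS2 at 130 CPM in both it and replicate 1, and its adipocyte marker sum was the highest of all libraries. In YK_9d replicate 3 was highest for all 7 genes and for the adipocyte sum. Replicate 1, with muscle transcripts and the lowest adipocyte sum, was lowest for ME1, TKT, IDH1, SLC25A1 and ACSS2. The coefficient of variation within a group was 8.93% for ACSS2 and 35.2% for ME1 in GS_80d, and 12.9% and 64.8% in YK_9d.

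The likeness of the genes over the 12 libraries was measured as the root mean square difference of their standardised log2 CPM, where the median over 9604 other genes was 1.35 to 1.36. ME1 and TKT were the closest pair of the 7 at 0.246, and TALDO1 and IDH1 the farthest at 0.901. The nearest genes to ME1 were SETD7 (0.229), CYP4V2 (0.239) and TKT, and those nearest to TKT were ME1, MARK1 (0.251) and MRAS (0.280). PCBD1, SSX2IP and HLCS lay nearest to PGD (0.304 to 0.314), and ACACA, DNAJB12 and NADK nearest to TALDO1 (0.389 to 0.419). IDH1 had PRDX3 and PON2 as its neighbours (0.207 and 0.213), SLC25A1 had ALDOC, AGPAT1 and TBC1D20 (0.212 to 0.257), and ACSS2 had DHRS7, MFN2 and ALDH2 (0.197 to 0.240). These values describe patterns that all contain the same group differences and library depths.

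For the mitochondrial counterparts of the cytosolic enzymes, breed differences at 80 d were near 0 or negative and did not pass in edgeR. ME2, a mitochondrial malic enzyme, had 20.6, 24.3 and 22.3 CPM in GS_80d and 16.4, 29.3 and 38.9 CPM in YK_80d (log2 difference -0.33 ± 0.27, adjusted p = 0.485). ME3, the mitochondrial NADP malic enzyme, differed by 0.17 ± 0.19 (adjusted p = 0.648). IDH2, the mitochondrial isocitrate dehydrogenase that makes NADPH, had 28.6, 40.1 and 44.6 CPM in GS_80d, against 61.2, 60.2 and 99.1 CPM in YK_80d. It lay the other way from IDH1, without overlap, but did not pass (-0.96 ± 0.27, adjusted p = 0.0542), and it was lower in GS_80d than in GS_9d (-1.21 ± 0.27, adjusted p = 0.0370), with GS_9d at 73.1, 80.2 and 109 CPM. ACSS1, which uses acetate in mitochondria, had 20.5, 26.4 and 28.1 CPM in GS_80d and 34.6, 40.3 and 30.2 CPM in YK_80d (-0.49 ± 0.28, adjusted p = 0.323).

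The balance within each pair was read from the ratio of their counts in the same library, which cancels the scaling. IDH1 over IDH2 was 19.9, 13.9 and 15.8 in GS_80d, against 3.35, 3.55 and 2.42 in YK_80d. At 9 d it was 6.34, 9.23 and 6.65 in GS_9d and 1.64, 3.38 and 2.78 in YK_9d. The breeds did not overlap at either age, and GS_80d did not overlap with GS_9d. ME1 over ME2 was 27.4, 11.5 and 17.1 in GS_80d and 3.81, 2.55 and 1.58 in YK_80d, and it was 4.09, 4.54 and 3.95 in GS_9d and 0.631, 1.09 and 1.95 in YK_9d. ACSS2 over ACSS1 was 10.6, 7.73 and 6.46 in GS_80d, against 1.61, 1.30 and 1.36 in YK_80d. At 9 d it was 3.20, 6.21 and 2.95 in GS_9d and 1.05, 1.32 and 2.55 in YK_9d. Each pair thus had its highest ratios in GS_80d. The ratios were not tested and are not ratios of molecules, since gene length is not removed.

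**Figure D3:**
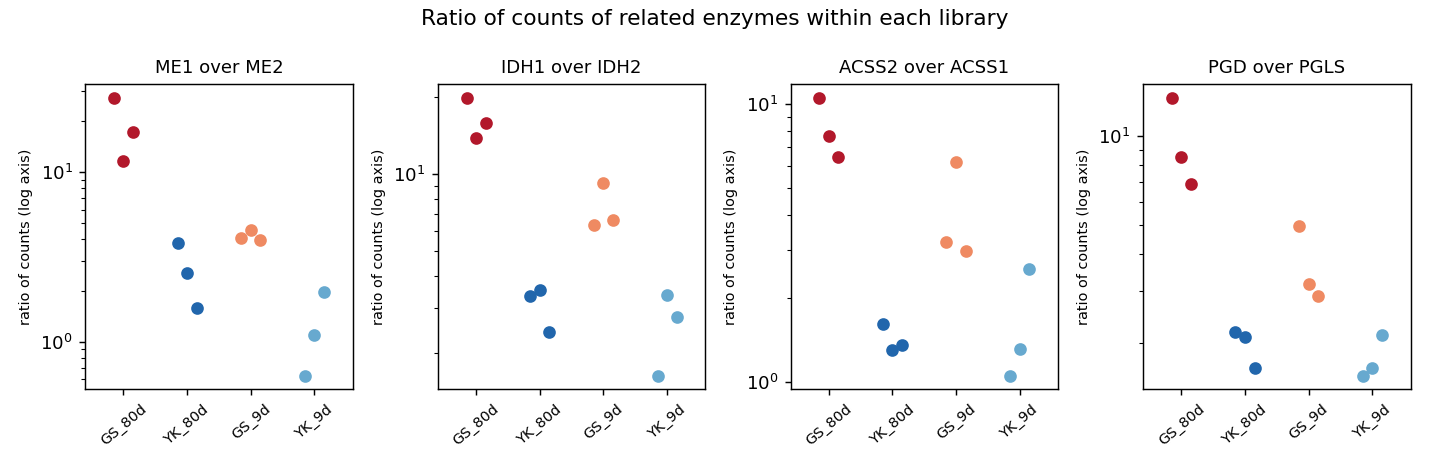
Ratio of the counts of paired enzymes in the same library, on log axes, with 3 points per group. In each panel the 3 GS_80d libraries stand above all others, from 13.9 to 19.9 for IDH1 over IDH2, against 2.42 to 3.55 in YK_80d.

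Other genes of the pentose phosphate pathway and its branches had no common direction at 80 d. Of 11 such genes 9 had a row and 8 were tested, of which 3 had positive and 5 negative differences, with a median of -0.18, and 1 passed. That gene was PGLS, which acts ahead of PGD and was lower, with 21.6, 23.3 and 30.9 CPM in GS_80d and 50.7, 45.5 and 53.5 CPM in YK_80d (-0.98 ± 0.26, adjusted p = 0.0462). The ratio of PGD to PGLS counts was 13.5, 8.48 and 6.88 in GS_80d and 2.17, 2.09 and 1.64 in YK_80d, without overlap. PGLS lost its call in all 6 fits that left out a library (adjusted p up to 0.170). H6PD, which makes NADPH inside the endoplasmic reticulum, differed by -0.41 ± 0.20 (adjusted p = 0.240).

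Other genes of NADPH, NADP and folate metabolism, not all of which make NADPH, had no common direction. Of 12 tested, 7 had positive and 5 negative differences at 80 d with a median of 0.09, and 1 passed. MTHFD1L, a mitochondrial enzyme of the folate cycle, was lower in GS at both ages. It had 1.74, 5.5 and 3.68 CPM in GS_80d and 9.37, 13 and 8.65 CPM in YK_80d (-1.51 ± 0.37, adjusted p = 0.0340), and 4.05, 5.56 and 4.66 CPM in GS_9d and 19.9, 26.3 and 20.2 CPM in YK_9d (-2.22 ± 0.38, adjusted p = 0.0269). MTHFD1L lost its call in 5 of the 6 fits that left out a library at 80 d, all but that without GS_80d replicate 2 (adjusted p up to 0.107), and in 5 of 6 at 9 d, all but that without YK_9d replicate 3 (adjusted p up to 0.109). It also lost both calls without the 3 libraries with muscle transcripts (adjusted p = 0.0962 at 80 d and 0.101 at 9 d).

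Many genes tied to the supply of acetyl-CoA and its export as citrate, not all of which make or move it, were higher in GS_80d. Of 23 tested, 20 had positive differences, 10 were called higher and 0 lower, with a median of 0.93. Of all genes tested 48.6% had positive differences, 3.17% were called higher and 2.95% lower. ACLY had 407, 318 and 442 CPM in GS_80d, against 66.5, 86.8 and 61.1 CPM in YK_80d (2.44 ± 0.24, adjusted p = 0.000599). ACO1, the cytosolic aconitase that links citrate to the substrate of IDH1, was higher in GS at 80 d (1.76 ± 0.29, adjusted p = 0.00641) and at 9 d (1.53 ± 0.29, 0.0347), as IDH1 was. All 5 tested subunits of the pyruvate dehydrogenase complex passed at 80 d, namely PDHA1 (1.33 ± 0.27), PDHB (1.17 ± 0.23), DLAT (1.14 ± 0.23), DLD (0.96 ± 0.23) and PDHX (1.39 ± 0.32), while the 4 kinases that switch it off did not pass in edgeR (1 passed by DESeq2) and had a median of 0.40. With a library left out the count of 10 became 2 (GS_80d replicate 1), 6 (GS_80d replicate 2), 4 (GS_80d replicate 3), 6 (YK_80d replicate 1), 7 (YK_80d replicate 2) or 3 (YK_80d replicate 3), and it was 2 with YK_80d replicates 2 and 3 both left out.

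ACLY overlapped between the breeds at 9 d. It had 82.3, 101 and 88.2 CPM in GS_9d, against 56.6, 91.2 and 77.7 CPM in YK_9d (0.27 ± 0.23, adjusted p = 0.663). It rose in GS with age by 2.10 ± 0.24 (adjusted p = 0.00285) and passed the interaction at 2.17 ± 0.32 (adjusted p = 0.0410). Of 9 tested genes of fatty acid synthesis, elongation and desaturation, 5 were higher in GS_80d and 1 lower, against 3.17% and 2.95% of all genes tested. The differences were, for FASN, fatty acid synthase, 4.74 ± 0.60, for SCD, stearoyl-CoA desaturase, 6.70 ± 0.95, for ACACA, acetyl-CoA carboxylase, 2.95 ± 0.42, and for ELOVL5, a fatty acid elongase, 2.28 ± 0.32 on the log2 scale. ELOVL5 was higher in GS at 9 d too (1.54 ± 0.31, adjusted p = 0.0449). The gene that was lower was FADS2, a desaturase of polyunsaturated fatty acids (-1.66 ± 0.27, adjusted p = 0.00568). MCAT and OXSM, of mitochondrial fatty acid synthesis, differed by -0.07 and 0.58 (adjusted p = 0.906 and 0.290). The count of 6 was 1 without YK_80d replicates 2 and 3.

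**Figure D4:**
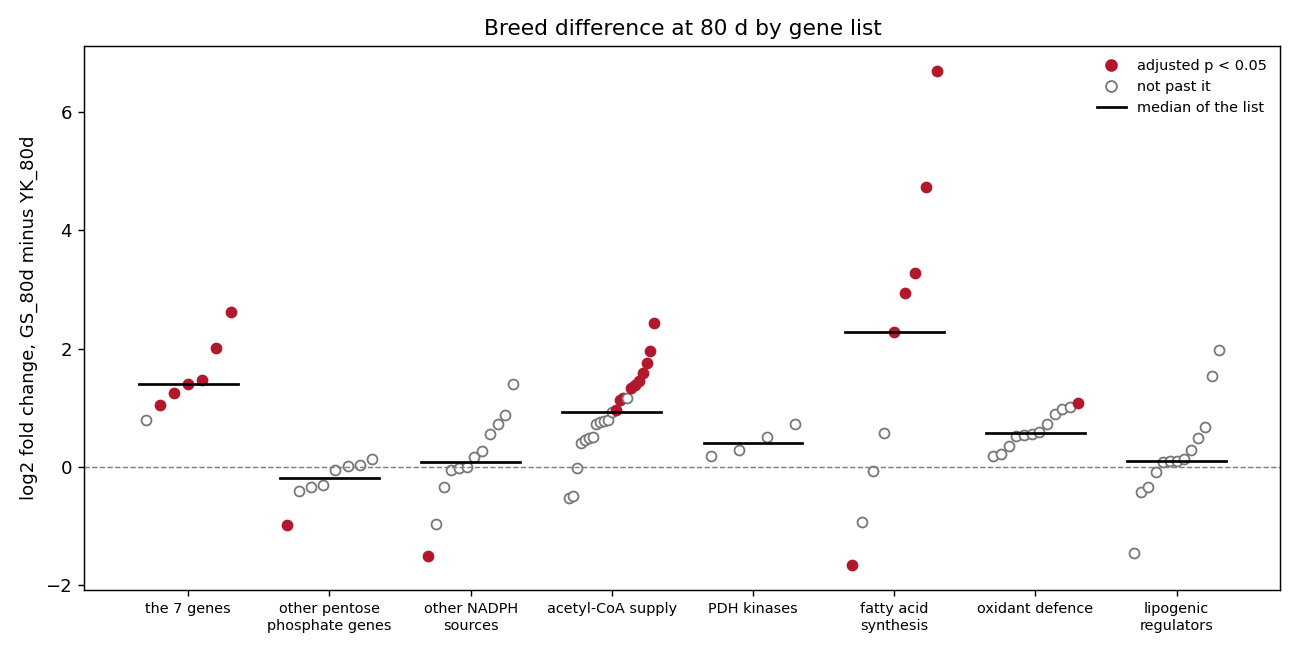
Log2 fold change at 80 d, GS_80d minus YK_80d, for the 7 genes and 7 lists of related genes, with filled points for an adjusted p under 0.05 and a bar for each list's median. The medians are 1.40 for the 7 genes, -0.18 for other pentose phosphate genes, 0.93 for acetyl-CoA supply and 2.28 for fatty acid synthesis.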

How the data were processed

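The values are expected counts, deposited as a single table and not scaled between libraries; per the submitters' processing notes the build is mm10, although every ID is a pig gene, so no coordinates are given. Aligner, counter and strand setting were not given in the sources used here. Overlapping or near-identical genes may therefore share reads. Values were whole and pile up at multiples of about 3.72; they were tested as deposited. Symbols came from the supplied ID table (14692 genes), and lists were matched by symbol. Genes passing filterByExpr (15425) were fitted over all 12 libraries with 4 group terms, TMM factors of 0.888 to 1.10 and edgeR 4.0.16 under R 4.3.3 (quasi-likelihood, robust, two-sided, Benjamini-Hochberg over all genes tested). The SE is the log2 fold change over the root of F. DESeq2 1.42.0 and limma 3.58.1 were alternatives. The procedure was tested on simulated data. The 7 genes and the lists were chosen with earlier results of these data known, and no test was run over a list. Besides the 7 genes, the text names ACLY, FASN, ACACA, the isozymes ME2, ME3, IDH2, ACSS1 and H6PD, up to 4 genes per list with the smallest adjusted p, and the 3 nearest genes to each of the 7, except that some genes are not reported here and are left out of the list counts; DLAT, DLD, PDHX, FADS2 at 80 d and the other genes named were chosen after their values were seen.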

Additional observations from a re-analysis of the deposited data

Results flagged for a closer look

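ACLY, ATP citrate lyase, had a breed difference at 80 d that was larger than at 9 d by 2.17 ± 0.32 on the log2 scale (edgeR, adjusted p = 0.0410), and it was named because this interaction passed the threshold. Its breed difference was 2.44 at 80 d, with all 3 GS_80d libraries above all 3 YK_80d libraries, and 0.27 at 9 d. The call was lost in 8 of the 12 fits that left out 1 library, where the interaction was 2.0 to 2.35 over all 12 fits and the adjusted p up to 0.140.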

How the results depend on the processing

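Of the 7 genes' fold changes under the alternatives, 502 kept direction and side of the threshold, 39 lost and 7 gained the call, and 19 changed sign, each of a gene that had not passed. The cause was not tested. The 502 include fold changes that were not called in the main fit and stayed so, and the 39 are losses of main calls. For breed at 80 d TKT lost its call in 9 of 15 alternatives, PGD in 6, IDH1 in 2, ME1 and SLC25A1 in 1 each and ACSS2 in 0. At 9 d ACSS2 lost it in 8 of 15 and IDH1 in 7, and for age in GS ME1 lost it in 5 of 14. By DESeq2, 2221 genes passed for breed at 80 d, 891 for breed at 9 d, 1465 for age in GS, 850 for age in YK and 369 for the interaction, against 944, 157, 409, 186 and 10 in edgeR, and 7 of the 7 genes passed for breed at 80 d, 3 for breed at 9 d and 3 for age in GS. By limma-voom 58 passed for age in YK and 6 for the interaction. With only the libraries compared, 29 genes and 0 of the 7 passed for breed at 9 d, 1055 and 3 for age in GS, and 46 genes for age in YK. Without the 3 libraries with muscle transcripts, 290 genes passed for breed at 80 d, 39 genes and 0 of the 7 at 9 d, 150 genes for age in GS and 51 in YK, and IDH1 was at 0.018 for age in GS, -0.3 for age in YK and 0.317 for the interaction. Without YK_9d replicates 2 and 3, 11 genes and 0 of the 7 passed for breed at 9 d, 14 genes for age in YK and 4 for the interaction; PGD, SLC25A1 and ACSS2 were at 0.157, 0.06 and 0.078 for age in YK and TKT at -0.146 for the interaction. Without YK_80d replicates 2 and 3, 242 genes and 1 of the 7 passed for breed at 80 d, 74 genes for age in YK and 21 for the interaction; ME2 was at 0.446 for breed at 80 d, and PGD, IDH1 and ACSS2 at 0.048, -0.06 and 0.04 for age in YK.

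With each library left out in turn, 255 to 916 genes and 3 to 5 of the 7 passed for breed at 80 d, 5 to 284 and 0 to 3 at 9 d, 78 to 122 and 0 to 1 for age in GS, 27 to 245 and 0 for age in YK, and 5 to 90 and 0 for the interaction. In these fits IDH1 ran from -0.248 to 0.037 for age in GS, from -0.209 to 0.285 for age in YK and from -0.348 to 0.151 for the interaction, ACSS2 from -0.198 to 0.022 and PGD from -0.245 to 0.19 for age in YK, and TALDO1 from -0.118 to 0.437 for breed at 9 d. With the replicate number as a block, 49 genes and 1 of the 7 passed for breed at 9 d, 5 of the 7 for breed at 80 d, 65 genes for age in YK and 2 for the interaction. The samples share only a number: deviations of libraries with the same number correlated between -0.224 and 0.147, and not every library correlated best with its own number.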

Other observations

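Genes of the defence against oxidants and of the pathway of the transcription factor NRF2, itself included, had positive differences at 80 d in 12 of 12 tested. Of all genes tested 48.6% had positive differences. The median of the list was 0.57, but 1 passed. That gene was GCLM, a subunit of the enzyme that starts glutathione synthesis, with 55.2, 70.5 and 59.4 CPM in GS_80d and 33.3, 22.2 and 32.2 CPM in YK_80d (1.08 ± 0.25, edgeR adjusted p = 0.0281). It also rose in GS with age (1.06 ± 0.25, adjusted p = 0.0435). The breed call at 80 d was lost in 5 of the 6 fits that left out a library, all but that without YK_80d replicate 1 (adjusted p up to 0.0953), and the age call in all 6 (adjusted p of 0.0667 to 0.153). At 9 d the list had 4 positive and 8 negative differences with a median of -0.14.

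Of 13 factors known to act on lipogenic enzymes 0 passed for breed at 80 d in edgeR, where 2 passed by DESeq2, and their median was 0.11, with 9 positive and 4 negative differences. NR1H3, a nuclear receptor for oxysterols, had the smallest adjusted p and was at -1.45 ± 0.48 (0.0931), with 88.7, 17.7 and 73.9 CPM in GS_80d and 167, 170 and 155 CPM in YK_80d. THRSP differed by 1.99 ± 0.72 (adjusted p = 0.121), MLXIPL by 1.53 ± 0.64 (0.175) and SREBF1 by 0.48 ± 0.31 (0.381) on the log2 scale. These 4 were chosen after their values were seen.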
